A study of Mus musculus with 12 samples.

Results

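The matrix metalloproteinases (MMPs) and the tissue inhibitors of metalloproteinases (TIMPs) were read in murine lung and lung adenocarcinoma by 16 probe sets of an expression array, out of 45101 probe sets in the deposited table. The 16 probe sets stand for 9 genes, of which Mmp2, Mmp3, Mmp9, Mmp12, Mmp13 and Mmp14 encode proteases (9 probe sets) and Timp1, Timp2 and Timp3 encode inhibitors (7 probe sets). They were chosen as a family from the levels of these same 12 arrays, so their levels and differences are given as a description, with no p-value. The pairing of each probe set with its gene came with that choice, since the deposited table gives probe set numbers and no gene names. Of the 16 probe sets, 14 had a signal above 4.18, the median of the table, on 4 or more arrays, and Mmp3 and Mmp13, with 1 probe set each, did not.

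Lung tissue of 3 groups was compared, each with 4 arrays and 1 array per sample. The series names 4 non-transgenic and 4 transgenic mice, while the methods speak of 12 independent samples. Non-transgenic lung came from FVB mice, an inbred strain, bought from a supplier. Adjacent normal lung and lung tumor came from FVB mice that carried wild-type human cyclin E under the human surfactant protein C promoter, which is active in alveolar type II cells, and both tissues of these mice carried the transgene. All mice were 7 to 11 months old and labelled male. Cyclin E is a G1 cyclin that activates Cdk2 and drives entry into S phase. Tumor and normal tissue were separated by gross pathology. Whether the transgenic mice came from the colony of the non-transgenic ones is not given in the sources used here, so transgene and colony cannot be told apart. Whole tissue was used, and fewer cells of a type cannot be told apart from less RNA per cell. The tissue labels were not checked against marker genes here, because gene names were at hand for the 16 probe sets alone.

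MMPs are zinc-dependent endopeptidases that cut collagens, elastin, laminins and other proteins of the extracellular matrix, and that release growth factors and cytokines held there. They are made as inactive proenzymes and are held in check by TIMPs, which bind the active site. In the lung, macrophages, neutrophils, fibroblasts and epithelial cells each make their own set of MMPs, and the balance of protease and inhibitor is known from emphysema, fibrosis and tumor invasion. On the cell surface, Timp2 joins Mmp14 and the proenzyme of Mmp2 into a complex in which a further Mmp14 molecule activates Mmp2, so that this inhibitor also takes part in activation.

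The sequence ahead of the transcription start was at hand for 7 of the 9 genes, as RefSeq windows of 250 bases before to 50 bases after the annotated start in build GRCm38.p6. Mmp2 and Mmp9 are named only. Mmp13, Mmp12 and Mmp3 lie in this order in 1 stretch of chromosome 9, with Mmp1b between Mmp12 and Mmp3, and their windows are printed because these neighbours had different patterns across the arrays. Mmp12 has 2 annotated starts, and the downstream window is shown. The Timp3 window is printed beside them, as that of the inhibitor whose tumors lay below every normal lung in all its probe sets. Each sequence runs 5′ to 3′ on the plus strand. Capitals mark TGAGTCA, or TGACTCA on the other strand, the site of AP-1, the dimer of Fos and Jun proteins, and TATAAA, or TTTATA on the other strand, the core of the TATA box.
Mmp13, chr9:7272264-7272563: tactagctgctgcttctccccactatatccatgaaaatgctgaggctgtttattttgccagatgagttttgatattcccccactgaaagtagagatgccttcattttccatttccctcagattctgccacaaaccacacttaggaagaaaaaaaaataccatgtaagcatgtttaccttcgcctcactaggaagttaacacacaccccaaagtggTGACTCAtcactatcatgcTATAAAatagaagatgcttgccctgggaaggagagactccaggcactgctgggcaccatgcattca
Mmp12, chr9:7347124-7347423: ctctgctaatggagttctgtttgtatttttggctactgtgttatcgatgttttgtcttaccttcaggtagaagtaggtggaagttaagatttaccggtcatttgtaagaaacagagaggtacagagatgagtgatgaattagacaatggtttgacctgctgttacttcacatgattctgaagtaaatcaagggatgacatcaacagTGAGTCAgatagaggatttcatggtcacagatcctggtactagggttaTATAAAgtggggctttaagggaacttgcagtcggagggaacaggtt
Mmp3, chr9:7445572-7445871: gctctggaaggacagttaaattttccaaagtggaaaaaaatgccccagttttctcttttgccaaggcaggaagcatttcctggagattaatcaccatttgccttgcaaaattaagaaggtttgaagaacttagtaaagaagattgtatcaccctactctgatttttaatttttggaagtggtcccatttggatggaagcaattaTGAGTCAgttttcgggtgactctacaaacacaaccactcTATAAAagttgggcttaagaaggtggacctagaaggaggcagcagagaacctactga
Timp3, chr10:86300162-86300461: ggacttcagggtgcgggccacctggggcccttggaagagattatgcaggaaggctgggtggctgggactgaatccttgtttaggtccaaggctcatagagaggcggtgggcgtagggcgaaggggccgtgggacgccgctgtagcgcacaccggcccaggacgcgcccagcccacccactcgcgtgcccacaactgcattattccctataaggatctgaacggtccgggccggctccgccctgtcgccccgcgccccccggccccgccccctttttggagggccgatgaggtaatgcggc
The AP-1 letters began 35 bases before the start in Mmp13, 44 bases before it in Mmp12 and 46 bases before it in Mmp3, and they were in no other of the 8 windows, the upstream start of Mmp12 included. The same 3 windows held TATAAA, which began 16 bases before the start in Mmp13, 7 bases before it in Mmp3 and 4 bases after it in Mmp12. Across the 32851 promoter windows of this table, AP-1 letters were in 5.20% and TATAAA was in 13.6%. A match to AGGAAG, or CTTCCT on the other strand, the letters of the Ets family site PEA3, was in 6 of the 8 windows and in 35.4% of all promoter windows. No matches of different motifs overlapped in the 8 windows. Bases G and C made up 38.7% to 43.7% of the 4 windows on chromosome 9, against 56.0% in Mmp14, 55.0% in Timp1, 67.0% in Timp3 and 68.7% in Timp2, with a median of 52.7% over all promoter windows. Both strands were searched, and these matches describe letters, not bound sites.

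Values are log2 signals as deposited, so a difference of 1 is a doubling, and the signal of 1 probe set is not set against that of another. Across the family, tumors had higher signals for Mmp12 and Mmp14, lower signals for Mmp2, Timp2 and Timp3, and mixed signals for Mmp3, Mmp9, Mmp13 and Timp1. Against adjacent normal lung, limma called 11 of the 14 probe sets tested, 3 as higher and 8 as lower, at a Benjamini-Hochberg adjusted p under 0.05 over 23538 probe sets. Of all probe sets tested, 13.2% were called higher and 15.6% lower in this comparison. In 3 of the 16 probe sets every tumor lay above every adjacent normal lung, and in 5 every tumor lay below, beside 10.4% and 13.0% of the probe sets tested. The levels of these arrays had been known when the family was chosen, so nothing is read from these counts. After each array was centred on its median, 4828 probe sets of the whole table were called higher and 3070 lower, in place of 3102 and 3663, the median of all differences went from 0.07 to 0.18, and each of the 14 family differences kept its sign. The median difference was 0.17 over the 9 MMP probe sets and -1.27 over the 7 TIMP probe sets, beside 0.07 over all probe sets tested. Without tumor 2 the MMP median was -0.48 and the TIMP median -1.46, so the sign of the MMP median rests on that array. With any other array of this comparison left out, the MMP median was 0.15 to 0.47 and the TIMP median -1.43 to -1.19. The -0.48 without tumor 2 is the value of Mmp3, which had not passed the filter, and 4 of the 7 TIMP probe sets read Timp3.

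Against non-transgenic lung, which shares its tumors with the comparison above, 12 of the 14 probe sets were called, 4 as higher and 8 as lower. The share called over the whole table was 15.6% higher and 16.9% lower. The arrays did not overlap in 4 probe sets that lay above and 8 that lay below, beside 13.3% and 15.2% of the probe sets tested. The median difference was 0.68 over the MMP probe sets and -1.37 over the TIMP probe sets, and without tumor 2 these medians were 0.00 and -1.49.

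Some arrays stood apart from their groups over the 23538 probe sets tested. Tumor 2 had a mean Euclidean distance of 153.9 to the other tumors, which were 96.7 to 102.9 from the rest of their group, and of 112.0 to the 8 normal lungs, from which the other tumors were 169.3 to 177.4 away. Its control transcripts had a 3′ minus 5′ difference in log2 signal of 0.61, against 0.30 to 0.57 on the other 11 arrays. Adjacent normal lung 3 was 104.7 from its group, against 66.2 to 69.8 for the others, and had the highest median signal of all arrays (4.38). The part of these array differences in the results was not tested, and the differences that tumor 2 moves most are given with and without it.

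**Figure D1:**
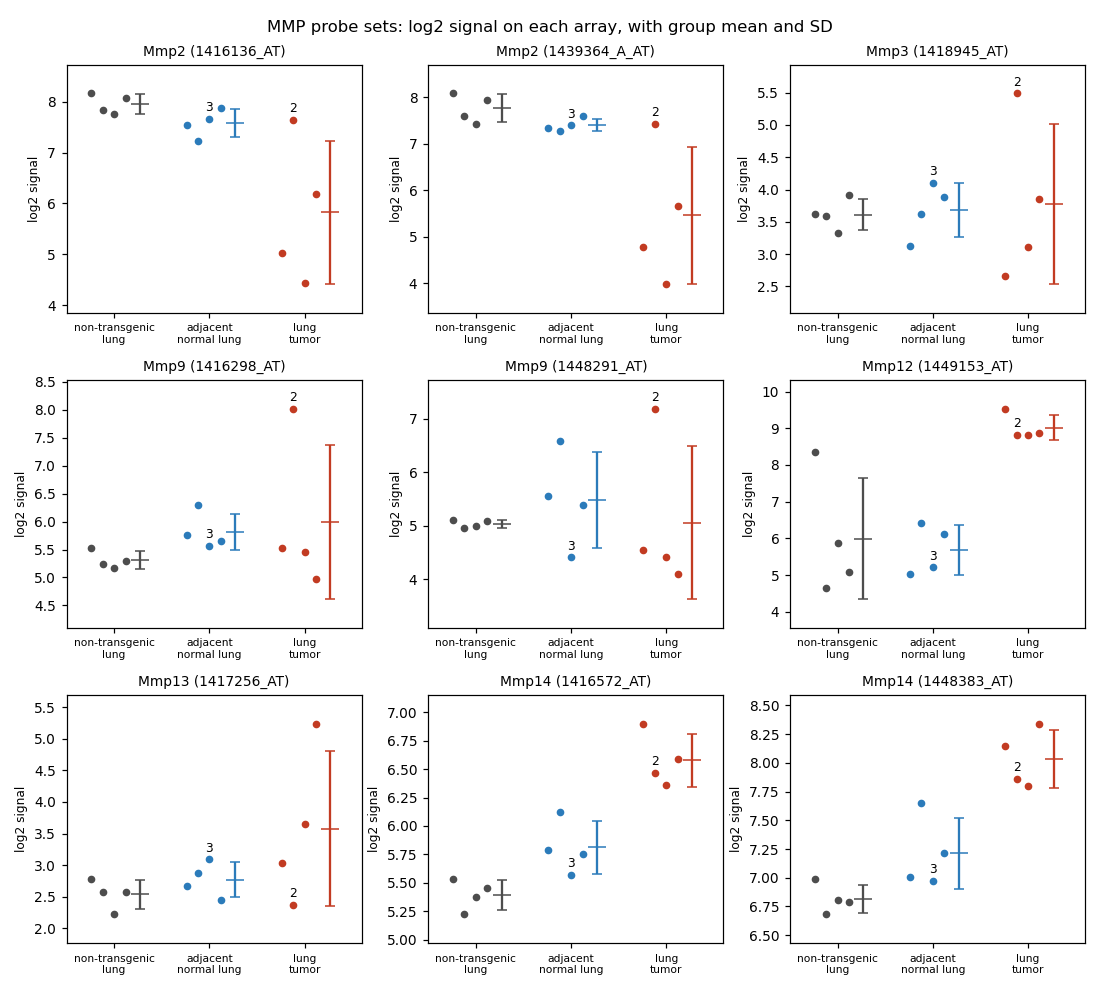
Log2 signal of the 9 MMP probe sets on each of the 12 arrays, 1 panel per probe set with its own vertical axis. Points are arrays, lines and bars beside them are the group mean and SD (n = 4), and the digits mark tumor 2 and adjacent normal lung 3. The Mmp12 and Mmp14 panels have all 4 tumors above all adjacent normal lungs, while in the Mmp2 panels tumor 2 lies within the range of the adjacent normal lungs.

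Mmp12, the macrophage elastase, had the largest difference of the family. The log2 signal of 1449153_AT was 9.54, 8.83, 8.83 and 8.88 in tumors 1 to 4, against 5.03, 6.41, 5.21 and 6.13 in adjacent normal lungs 1 to 4. The non-transgenic lungs were at 8.35, 4.65, 5.88 and 5.10. All 4 tumors lay above all 8 normal lungs, and the highest normal lung was non-transgenic lung 1. Tumors had a mean of 9.02 ± 0.35 and adjacent normal lungs one of 5.69 ± 0.68 (SD over 4 arrays each). The tumors were thus higher by 3.32 ± 0.65 (SE), or 10.02-fold. Among all probe sets tested, 0.04% had a larger positive difference in this comparison. Tumor 2 was not above the other tumors here, so leaving it out could not lower the difference, which was then 3.39. The difference was 3.15 without tumor 1, the highest tumor, and 3.10 to 3.56 with any single array of this comparison left out. By replicate number the tumor exceeded the adjacent lung by 4.51, 2.42, 3.62 and 2.75. Against non-transgenic lung, with an SD of 1.65, the difference was 3.03 ± 0.65 (SE), or 8.14-fold. It was 3.81 without non-transgenic lung 1, in which Mmp12 was high, and 2.58 without non-transgenic lung 2.

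The probe sets whose pattern was most like that of Mmp12 over the 12 arrays, by Pearson's r, were 1426658_X_AT (r = 0.97) and 1451537_AT (r = 0.96), and the most opposite were 1459219_AT (r = -0.98) and 1427776_A_AT (r = -0.96). These carry no gene name here. Within the family the Mmp14 probe sets had r = 0.83 and 0.84 with Mmp12, the Timp3 probe sets had r from -0.88 to -0.82, and the Mmp9 probe sets had r = 0.25 and -0.05. All 12 arrays with their 3 groups enter each r, so the values include the differences between groups.

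Mmp14, the membrane-type MMP that activates the proenzyme of Mmp2, was higher in tumors by a smaller amount. On 1448383_AT the log2 signals were 8.15, 7.86, 7.80 and 8.34 in tumors, 7.01, 7.65, 6.98 and 7.22 in adjacent normal lungs, and 6.99, 6.68, 6.80 and 6.79 in non-transgenic lungs. All 4 tumors lay above all 8 normal lungs, with 0.15 between tumor 3 and adjacent normal lung 2. The difference from adjacent normal lung was 0.82 ± 0.18 (SE), or 1.77-fold, and that from non-transgenic lung was 1.22 ± 0.18 (SE), or 2.33-fold. The second Mmp14 probe set, 1416572_AT, spanned 6.36 to 6.90 on tumor arrays, 5.57 to 6.13 on those of adjacent normal lung and 5.22 to 5.53 on those of non-transgenic lung. The 3 groups did not overlap in it, and its tumors were 0.77 ± 0.16 (SE), or 1.70-fold, above adjacent normal lung. Tumor exceeded adjacent lung in all 4 replicate numbers for both probe sets, least in number 2, by 0.34 in 1416572_AT and 0.21 in 1448383_AT.

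Mmp2, gelatinase A, which cuts type IV collagen of basement membranes and denatured collagen, was lower in 3 tumors and near the normal level in tumor 2. On 1416136_AT the log2 signals were 5.03, 7.64, 4.45 and 6.18 in tumors 1 to 4, 7.55, 7.23, 7.67 and 7.87 in adjacent normal lungs and 8.16, 7.84, 7.75 and 8.07 in non-transgenic lungs. Tumor 2 lay within the range of the adjacent normal lungs and below every non-transgenic lung, and the other tumors lay at least 1.05 below every normal lung. The difference from adjacent normal lung was -1.75 ± 0.52 (SE) over all tumors, which is 3.38-fold lower, and -2.36 without tumor 2. In 1439364_A_AT, which also reads Mmp2, tumors were at 4.79, 7.42, 3.98 and 5.67, and the difference was -1.94 ± 0.54 (SE), or -2.59 without tumor 2. Against non-transgenic lung the 2 probe sets were lower by a log2 difference of -2.13 ± 0.52 (SE) and -2.30 ± 0.54 (SE), with no overlap. Without tumor 2 these differences were -2.74 and -2.95. In 1439364_A_AT tumor 2 lay barely below non-transgenic lung 3, at 7.425 against 7.429. By replicate number tumor was below adjacent lung in 3 of 4, by 1416136_AT differences of -2.52, -3.22 and -1.69, while number 2 differed by 0.41.

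The Mmp2 call in tumor against adjacent normal lung depended on single arrays. For 1416136_AT the adjusted p of limma passed the threshold no longer without tumor 1 (difference -1.49), tumor 3 (-1.30), adjacent normal lung 1 (-1.77) or adjacent normal lung 4 (-1.66). For 1439364_A_AT this was so without tumor 1 (-1.71) or tumor 3 (-1.44). The tumors had an SD of 1.41 and 1.48 in the 2 probe sets, and the adjacent normal lungs one of 0.27 and 0.14. Against non-transgenic lung both probe sets stayed called with any single array left out.

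Mmp9, gelatinase B, which neutrophils store in granules, was highest in tumor 2 and next highest in adjacent normal lung 2 in both of its probe sets. On 1416298_AT the log2 signal was 8.02 in tumor 2 and 5.52, 5.45 and 4.96 in tumors 1, 3 and 4. Adjacent normal lungs were at 5.75, 6.29, 5.57 and 5.65, and non-transgenic lungs at 5.53, 5.25, 5.16 and 5.30. Tumors 1, 3 and 4 thus lay below all adjacent normal lungs, while tumor 2 lay above every other array. The difference from adjacent normal lung was 0.17 ± 0.51 (SE) with tumor 2 and -0.51 without it.

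In 1448291_AT, which also reads Mmp9, tumor 2 was at 7.19 and the other tumors were at 4.54, 4.41 and 4.09. The adjacent normal lungs were at 5.56, 6.59, 4.40 and 5.38, and the non-transgenic lungs spanned 4.96 to 5.11. The difference from adjacent normal lung was -0.43 ± 0.61 (SE) and was not called, and it was -1.14 and called without tumor 2. The 2 Mmp9 probe sets therefore had mean differences of opposite sign over all 4 tumors and of the same sign over tumors 1, 3 and 4. Against non-transgenic lung the difference was 0.68 ± 0.51 (SE) in 1416298_AT, 0.00 without tumor 2, and 0.02 ± 0.61 (SE) in 1448291_AT, -0.69 without tumor 2.

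Mmp3, stromelysin-1, and Mmp13, collagenase-3, the main collagenase of rodents, had signals below the median of the table on most arrays. The log2 signal of 1418945_AT (Mmp3) exceeded 4.18 on 1 array, tumor 2 at 5.49, and lay between 2.66 and 4.11 on the other 11. The log2 signal of 1417256_AT (Mmp13) exceeded 4.18 on 1 array, tumor 4 at 5.24, and lay between 2.22 and 3.65 on the other 11. Each of these genes thus exceeded the median on 1 tumor, and not on the same one, and both values were below the 75th percentile of the table (6.47). For Mmp13, tumor 3 at 3.65 also lay above every normal lung, of which the highest was at 3.09. The difference between tumor and adjacent normal lung was 0.09 ± 0.48 (SE) for Mmp3 and -0.48 without tumor 2, and it was 0.80 ± 0.46 (SE) for Mmp13 and 0.25 without tumor 4. Both were left out of the table of 23538 probe sets by the filter on low signals, and neither was called when all probe sets were tested.

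**Figure D2:**
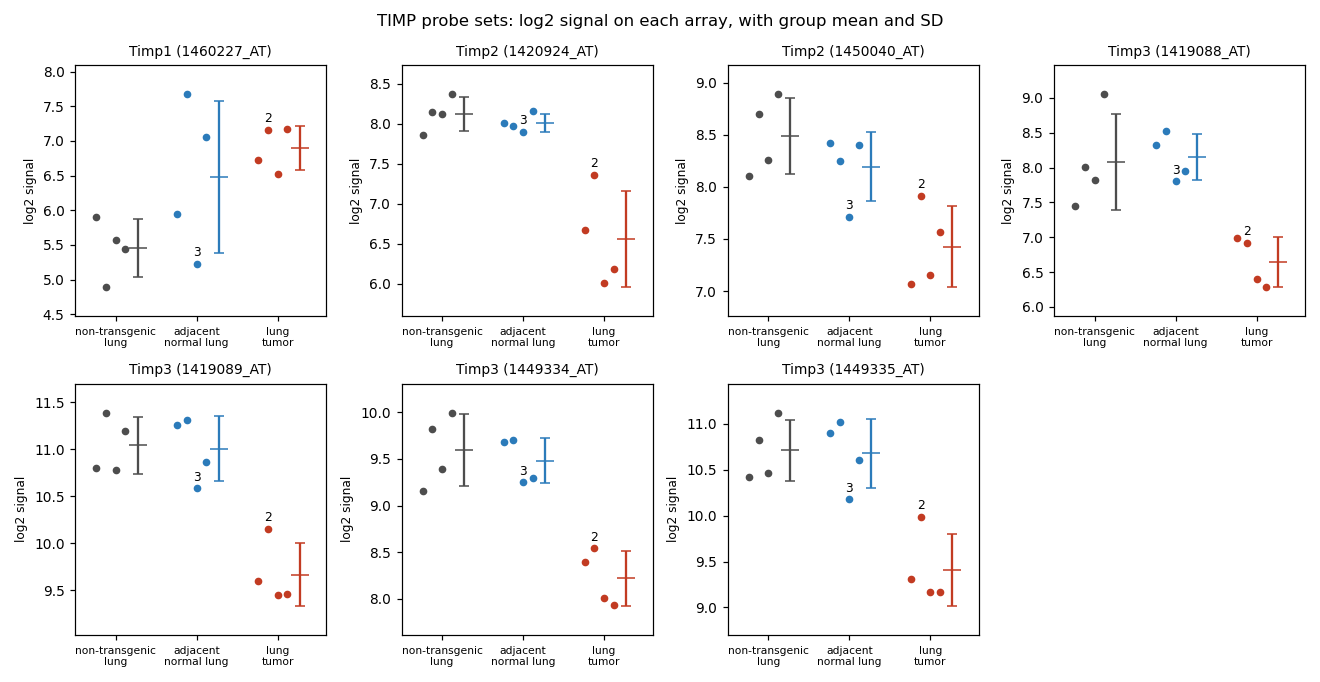
Log2 signal of the 7 TIMP probe sets on each of the 12 arrays, 1 panel per probe set with its own vertical axis. Points are arrays, lines and bars beside them are the group mean and SD (n = 4), and the digits mark tumor 2 and adjacent normal lung 3. All 4 tumors lie below all 8 normal lungs in the 4 Timp3 panels and in 1420924_AT of Timp2, and the adjacent normal lungs spread from 5.22 to 7.68 in the Timp1 panel.

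Timp3, the inhibitor that stays bound to the matrix and also inhibits ADAM and ADAMTS proteases, was lower in every tumor in all 4 of its probe sets. On 1419089_AT the log2 signals were 9.59, 10.15, 9.45 and 9.46 in tumors, 11.26, 11.31, 10.58 and 10.86 in adjacent normal lungs, and 10.80, 11.39, 10.77 and 11.20 in non-transgenic lungs. The groups of tumor and normal lung did not overlap, and the normal lung nearest to the tumors was adjacent normal lung 3. The difference from adjacent normal lung was -1.34 ± 0.22 (SE), which is 2.53-fold lower, and -1.50 without tumor 2. In 1419088_AT, 1449334_AT and 1449335_AT the differences were -1.50 ± 0.31, -1.26 ± 0.21 and -1.27 ± 0.24 (SE). By replicate number the tumor was below the adjacent lung in 4 of 4 for each probe set, by differences from -1.67 to -1.01. Against non-transgenic lung the 4 differences were -1.44 ± 0.31, -1.38 ± 0.22, -1.37 ± 0.21 and -1.30 ± 0.24 (SE), in the order 1419088_AT, 1419089_AT, 1449334_AT and 1449335_AT.

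Timp2, which inhibits MMPs and takes part in the activation of Mmp2 by Mmp14, was also lower in tumors. Log2 signals of 1420924_AT were 6.67, 7.36, 6.02 and 6.19 in tumors, 8.01, 7.97, 7.90 and 8.17 in adjacent normal lungs, and 7.86, 8.15, 8.12 and 8.38 in non-transgenic lungs. Tumor 2 was the highest tumor here too, but it lay 0.50 below the lowest normal lung. The difference from adjacent normal lung was -1.46 ± 0.25 (SE), or 2.74-fold lower, and -1.72 without tumor 2. In the second Timp2 probe set, 1450040_AT, tumors were at 7.07, 7.91, 7.16 and 7.57, adjacent normal lungs at 8.42, 8.25, 7.71 and 8.41, and non-transgenic lungs at 8.11, 8.70, 8.26 and 8.89. Here tumor 2 exceeded adjacent normal lung 3, and the difference was -0.77 ± 0.24 (SE). The call of 1450040_AT was lost without adjacent normal lung 1 (difference -0.69), 2 (-0.75) or 4 (-0.70) and without tumor 1 (-0.65), 3 (-0.68) or 4 (-0.82), as well as after each array was centred on its median (-0.65). Against non-transgenic lung the differences were -1.57 ± 0.25 (SE) in 1420924_AT and -1.06 ± 0.24 (SE) in 1450040_AT, both without overlap.

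Timp1, the inducible inhibitor that many cells make in response to cytokines, was the only inhibitor with a higher mean in tumors. Log2 signals of 1460227_AT were 6.73, 7.16, 6.53 and 7.18 in tumors, 5.95, 7.68, 5.22 and 7.05 in adjacent normal lungs, and 5.91, 4.89, 5.58 and 5.44 in non-transgenic lungs. The tumors lay above all non-transgenic lungs, while adjacent normal lungs 2 and 4 were within or above the range of the tumors, 1 was just above that of non-transgenic lung and 3 was within it. The difference between tumor and adjacent normal lung was 0.42 ± 0.44 (SE) and was not called, and it was 0.01 without adjacent normal lung 3 and 0.83 without adjacent normal lung 2. Against non-transgenic lung it was 1.45 ± 0.44 (SE), or 2.72-fold, and was called. That call was lost without non-transgenic lung 2 (difference 1.26), 3 (1.49) or 4 (1.44) or without tumor 4 (1.35).

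The probe sets most like Timp1 over the 12 arrays were 1444268_AT (r = 0.91) and 1459827_X_AT (r = 0.89), and the most opposite were 1446906_AT (r = -0.89) and 1443199_AT (r = -0.87), all without a gene name here. Within the family, 1448383_AT and 1416572_AT of Mmp14 had r = 0.80 and 0.76 with Timp1, at ranks 13 and 32 of the 23537 other probe sets. The arrays behind these values are the same 12 as above.

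**Figure D3:**
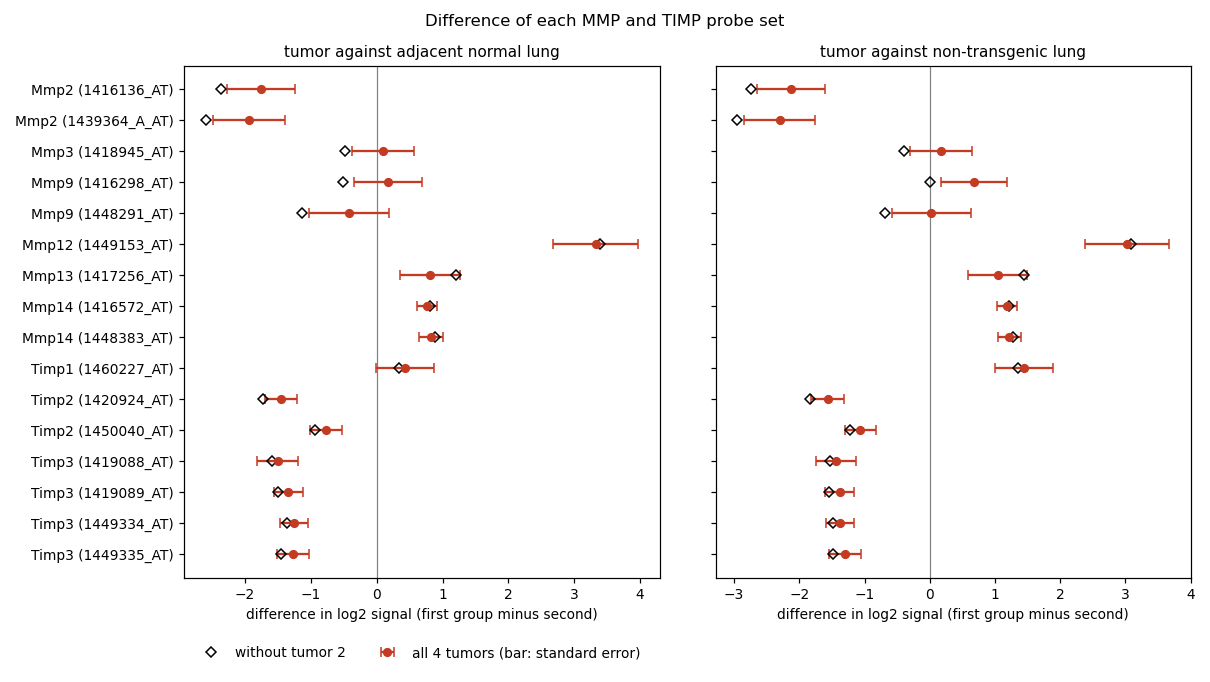
Difference in log2 signal of each probe set between tumor and adjacent normal lung (left) and between tumor and non-transgenic lung (right), with the standard error of the limma fit as a bar. Red points use all 4 tumors and open diamonds leave out tumor 2. Mmp12 lies farthest to the right, with 3.32 and 3.03, and the Mmp2, Timp2 and Timp3 probe sets lie left of 0 with and without tumor 2.

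Adjacent normal lung was set against non-transgenic lung to ask whether the family differed in transgenic lung outside the tumors. limma called 0 of the 14 probe sets tested, and over the whole table it called 0 of 23538 (0%), with 835 at an unadjusted p under 0.05. The spread in that fit is shared with the tumors. With only the 8 arrays of this comparison, limma also called 0, with 1544 at an unadjusted p under 0.05. An unequal-variance test, which the methods name for experiments other than the arrays, called 1305 before and 0 after Benjamini-Hochberg adjustment, with 2 of the 14 probe sets, Mmp9 1416298_AT and Mmp14 1416572_AT, among the 1305. In these same 2 probe sets the 4 adjacent normal lungs all lay above the 4 non-transgenic lungs, and in none of the 16 did they all lie below. Over the whole table the arrays did not overlap in 2.54% of the probe sets tested with adjacent lung higher and in 2.24% with adjacent lung lower.

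For 1416572_AT the difference between these lungs was 0.42 ± 0.16 (SE), or 1.33-fold, and for 1448383_AT of the same gene it was 0.40 ± 0.18 (SE), with the lowest adjacent lung 0.01 below the highest non-transgenic lung. For 1416298_AT of Mmp9 it was 0.51 ± 0.51 (SE). Each SE here comes from the fit of all 3 groups, so the spread of the tumors enters it. In 1416298_AT the SD was 1.38 in tumors, against 0.32 in adjacent normal lungs and 0.16 in non-transgenic lungs. The largest mean difference of the family was that of Timp1, 1.02 ± 0.44 (SE), or 2.03-fold, which 0.12% of the probe sets tested exceeded. It was 0.62 without adjacent normal lung 2 and 1.44 without adjacent normal lung 3. The Timp3 probe sets differed by -0.11 to 0.06 and the Timp2 probe sets by -0.29 and -0.11. Mmp12 differed by -0.30 ± 0.65 (SE), and by 0.48 without non-transgenic lung 1.

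Probe sets of the same gene were compared across the arrays by Pearson's r. Over the 12 arrays r was 0.995 for the pair of Mmp2 probe sets, 0.97 for Mmp14, 0.87 for Mmp9 and 0.87 for Timp2, and it was 0.91 to 0.99 for the 6 pairs of Timp3 probe sets. With the mean of each group removed, r was 0.99 for Mmp2, 0.93 for Mmp9, 0.79 for Mmp14, 0.60 for Timp2 and 0.64 to 0.94 for Timp3. These probe sets read the same RNA extracts, so they repeat the measurement and add no samples.

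Single arrays recurred across the family. Tumor 2 was the highest tumor in 10 of the 16 probe sets, namely both of Mmp2, Mmp9 and Timp2, that of Mmp3 and 3 of the 4 of Timp3, and it lay within the range of the 8 normal lungs in 5. The other tumors lay within that range in 2 to 4 probe sets. Adjacent normal lung 2 was the highest of its group in 10 probe sets, and adjacent normal lung 3 was the lowest of its group in 11. Among non-transgenic lungs, number 1 was the highest in 9.

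**Figure D4:**
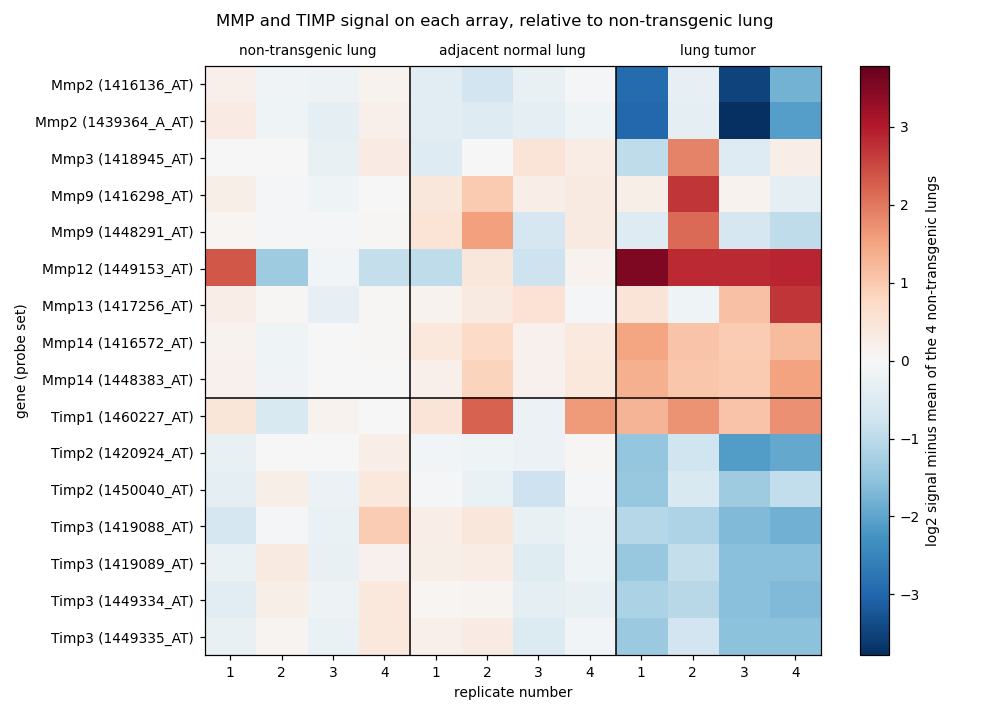
Log2 signal of the 16 probe sets (rows) on the 12 arrays (columns, by replicate number in each group) minus the mean of the 4 non-transgenic lungs, with red above and blue below that mean. The Mmp12 and Mmp14 rows are red in all 4 tumors and the Timp2 and Timp3 rows are blue, while tumor 2 is pale in the Mmp2 rows and red in the Mmp9 rows.

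Tissues of tumor and adjacent lung that share a replicate number carry successive codes in the labels, which implies a shared mouse without naming one, and the methods describe 12 independent samples. With a replicate block and the 8 arrays of these 2 tissues alone, limma called 3282 probe sets in place of 6765, and 7 of the 14 family probe sets in place of 11. Those 7 were the probe set of Mmp12, 1416572_AT of Mmp14, 1420924_AT of Timp2 and all 4 of Timp3. Both Mmp2 probe sets, 1448383_AT of Mmp14 and 1450040_AT of Timp2 lost their calls. With the same 8 arrays and no block, limma called 4331 probe sets and 8 of the family. Both Mmp2 probe sets and 1450040_AT had already lost their calls there. With the replicate block over all 12 arrays, 11 family probe sets were called. That block also held the non-transgenic lung of each number, which came from a different mouse.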

How the data were processed

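Expression was measured in 12 lung samples on Affymetrix mouse genome arrays. The authors deposited a log2 signal for each probe set on each array (1.50 to 14.51), with background correction and normalization done. The methods name Robust Multichip Average and the submitters' processing notes name GCRMA, with no version, and which was applied is not settled here. No detection calls, scan dates or batches were at hand, and the number of arrays limits the precision. The members and lists were chosen with earlier results of these data known. The methods use an analysis of variance over the groups. Here limma 3.58.1 in R 4.3.3 (lmFit, eBayes, 3 groups in 1 fit, no block) tested the 23538 of 45037 probe sets other than the 64 controls whose value exceeded 4.18, the median of the table, on 4 or more arrays, with Benjamini-Hochberg adjustment over all of them at 0.05. The fit was tested on simulated data. Python 3.11.15, pandas 2.3.3, numpy 2.4.6 and matplotlib 3.10.9 were used for summaries and figures.

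Gene names were those given with the 16 members, and all 9 symbols were in the RefSeq gene table. Lists of other proteolysis genes and of cell type markers were set out but not analysed here, because no other probe set had a name. The genes named were all 16 members, and for the MMP and the TIMP probe set with the largest SD over the 12 arrays, up to 2 unnamed probe sets with the highest and 2 with the lowest r. The rule had asked for 5 and 3. Euclidean distances were taken over the probe sets tested. Tumor and adjacent lung of 1 number have successive tissue codes in the labels, which implies but does not state a shared mouse. Deviations from the group means correlated by -0.03, 0.10, 0.07 and 0.11 within numbers 1 to 4, against at most 0.04, 0.14, 0.08 and 0.03 with another number, so the data do not settle the pairing. Also, no 2 arrays held the same values (highest r 0.9935). Alternatives were no filter, a 75th percentile filter (6.47), quantile normalization again, median centring, each array left out, a floor at 2.81 (the 25th percentile), intensity trend with robust fit, the 8 arrays of a comparison alone, the replicate block, the mouse as a random block and the unequal-variance test that the methods name for other experiments. Removal of both tumor 2 and adjacent lung 3, and the block over 8 arrays, were added after the data were seen.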

Additional observations from a re-analysis of the deposited data

Results flagged for a closer look

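In groups of 4 arrays, the highest or lowest array was compared with the nearest other as a share of the group's range (Dixon's criterion at 95%). Of 48 groups examined over the 16 probe sets, 2 had an array past it, where chance gives about 1 in 20. In 1448291_AT (Mmp9), tumor 2 was at a log2 signal of 7.19, with the other tumors at 4.09 to 4.54. In 1449153_AT (Mmp12), tumor 1 was at 9.54, with the other tumors at 8.83 to 8.88. Both arrays lay above the rest of their group.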

How the results depend on the processing

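The 902 alternative values of the family's differences, all from the 14 probe sets that passed the filter, each moved by less than the SD between replicates. No called difference changed sign. Staying within that SD does not test stability, because leaving out 1 array of a group moves its mean by only part of its SD. Several other settings left the differences unchanged. Uncalled differences of Mmp9, Mmp12, Timp1 and Timp3 changed sign in some settings, such as 1416298_AT of Mmp9 in tumor against adjacent lung, at -0.51 without tumor 2. The Mmp3 and Mmp13 probe sets are not among these values. In the same comparison the Mmp3 difference also changed sign without tumor 2, to -0.48. The number of probe sets called in tumor against adjacent normal lung was 6765, and it was 4069 with the 75th percentile filter, 4331 with only the 8 arrays, 3282 with the replicate block over those 8 arrays, 591 with the adjusted unequal-variance test and 11206 without tumor 2 and adjacent lung 3. It ranged from 4476 (without tumor 3) to 10595 (without tumor 2) with 1 array left out, and was 6179 with the replicate block over 12 arrays. The family's 11 calls became 8 with only the 8 arrays and 7 with the 8-array block. They became 3 (Mmp12, 1419088_AT and 1449334_AT) with the adjusted unequal-variance test, and ranged from 8 to 12 with 1 array left out. They were 13 without tumor 2 and adjacent lung 3, with both Mmp9 probe sets called lower. In tumor against non-transgenic lung the 7652 calls became 4246, 1489 and 12304 with the same filter, adjusted test and removal of both arrays, and 5370 (without tumor 3) to 11011 (without tumor 2) with 1 array left out. The family's 12 calls became 6 with the adjusted test, which lost those of Mmp12, Mmp2, Timp2 and 1419088_AT of Timp3. The family's calls were 11 or 12 with 1 array left out, and 13 without both arrays, with 1448291_AT of Mmp9 added. Adjacent against non-transgenic lung had 0 calls, 1305 with the unadjusted test (2 in the family) and 5 without both arrays, and 0 each time 1 array was left out. The replicate block changed no other family call. The fits of other proteolysis genes were not run. The 75th percentile filter tests fewer probe sets, and the cause of the other shifts was not tested.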
